A study of Mus musculus with 6 samples.

Results

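Kinesins are motor proteins that hydrolyse ATP to walk along microtubules, most of them toward the plus end. In neurons, members of the kinesin-1 (Kif5) and kinesin-3 (Kif1) families carry synaptic vesicle precursors, mitochondria and other cargo from the cell body into the axon. In dividing cells another set builds the spindle, aligns the chromosomes and completes cytokinesis, and a further set moves cargo into the primary cilium. The embryonic spinal cord holds young neurons that extend axons beside progenitors that still divide, so all of these motors can be read in the same tissue.

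The genes described here are those whose symbol is Kif followed by a number and at most 1 letter, with at least 10 counts in 3 or more libraries. Of 38 such symbols in the deposited tables, 34 met the count minimum, out of 17868 genes that met it among 55433 listed. The libraries came from spinal cords taken whole from C57BL/6J mouse embryos at E13.5. In 3 embryos the genotype was NFIA-ff (control) and in the other 3 it was NFIA-ff with Nestin-cre (NFIAcKO), so both groups carried the NFIA-ff allele. The series was designed around the function of the transcription factor NFIA in developing motor neurons. Nestin-cre expresses cre recombinase in neural progenitors and their progeny, and only the NFIAcKO embryos carried it, so the transgene and the deletion cannot be told apart. The labels give no litters.

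The members were placed in 4 classes by their known roles. The axonal class held 9 genes (Kif1a, Kif1b, Kif3c, Kif5a, Kif5b, Kif5c, Kif13b, Kif21a and Kif21b). The mitotic class held 10 (Kif2c, Kif4, Kif14, Kif15, Kif18a, Kif18b, Kif20a, Kif20b, Kif22 and Kif23), the ciliary class 9 (Kif3a, Kif3b, Kif6, Kif7, Kif9, Kif17, Kif19a, Kif24 and Kif27) and the remaining class 6 (Kif1c, Kif2a, Kif13a, Kif16b, Kif26a and Kif26b). Several of these genes act in more than 1 place. Kif3a and Kif3b, for example, form the motor that builds cilia and also carry cargo in axons. All 34 members had counts in every library. The member nearest the count minimum was Kif19a, whose third-highest count was 93. The nearest symbol outside it was Kif12, with a third-highest count of 2, and Kif28, Kif2b and Kif11 also stayed below it. Kif11, the plus-end motor that pushes spindle poles apart, had counts of 0, 2 and 0 in control replicates 1, 2 and 3 and 0 in each NFIAcKO library, so it could not be compared. A count of 0 allows up to 3 counts, for counting error alone. The other mitotic kinesins past the minimum had at least 217 counts in each library, and the sources used here do not say why Kif11 had almost none.

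Between 43393053 and 51465763 counts fell on genes in each library. Levels are given as counts scaled to library size (CPM, with TMM scaling), and differences as log2 fold changes of NFIAcKO over control with a standard error (SE). A gene was said to rise or fall where edgeR's quasi-likelihood test gave a Benjamini-Hochberg adjusted p under 0.05 over all 17711 genes tested, with 3 libraries against 3. The Nfia count went against the labels, at 60.1, 59.1 and 79.2 CPM in control replicates 1, 2 and 3 and 106, 108 and 119 CPM in NFIAcKO replicates 1, 2 and 3. It rose in the libraries labelled NFIAcKO (log2 fold change 0.75, SE 0.11, edgeR adjusted p = 0.0031). That count is for the whole gene and does not separate its exons, so it cannot test the deletion. The cause of the higher Nfia count was not tested. Every direction below is that of libraries labelled NFIAcKO against libraries labelled control. A trend with gene length also moved with the groups: per doubling of exonic length, log2 CPM changed by -0.065, -0.12 and -0.019 in control replicates 1, 2 and 3 relative to the mean of all libraries, and by 0.067, 0.040 and 0.093 in NFIAcKO replicates 1, 2 and 3. Kinesin genes are long, so the kinesins that passed, the classes and the lists of partner genes are also given with the trend in length and GC content removed. Control replicate 3 stood apart from the other controls in genes of dividing cells, which is described with the mitotic kinesins. In whole tissue, fewer cells of a type and less RNA per cell cannot be told apart.

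Kinesin genes were higher in the libraries labelled NFIAcKO or did not pass the test. Of the 34, 10 rose (29.4%) and 0 fell, while among all tested genes 7.86% rose and 6.08% fell. With upper quartile scaling 9 rose and 0 fell, against 5.97% and 8.1% of all genes. The risers were 6 axonal genes (Kif1a, Kif1b, Kif5a, Kif5c, Kif21a and Kif21b), the ciliary gene Kif3a, and Kif2a, Kif13a and Kif26b, with increases of up to 1.56-fold (Kif26b). With DESeq2 and with limma-voom the count of falls was also 0. DESeq2 called 14.1% higher and 11.1% lower of the 13245 genes that it gave an adjusted p. For limma-voom the shares were 7.37% and 4.93% of 17711 genes. In edgeR 15 members had an unadjusted p under 0.05, all of them higher. The share of all tested genes under that unadjusted threshold was not computed, so this count and later ones at it have no background. The log2 fold change was above 0 for 30 of 34 members, against 48.9% of all tested genes, with a median of 0.29 against -0.0083. In 15 members (44.1%) all 3 NFIAcKO libraries lay above all 3 controls, as they did for 17.3% of tested genes. No member lay below in all 3, as 16.1% of tested genes did.

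With the length and GC trend removed, 5 of 34 rose (14.7%) and 0 fell, against 3.82% and 3.87% of all genes, and the median was 0.16. The 5 were Kif5a, Kif21a, Kif3a, Kif2a and Kif26b, all among the 10. Of members that did not pass, Kif13b and Kif1c turned from 0.21 and 0.14 to -0.064 and -0.028. The members' median exonic length was 6974 bp against 3976 bp for all tested genes, and 32 of 34 were longer than that. Among the 4510 tested genes with exons between 4981 and 8823 bp, the range from the first to the third quartile of the members, 11.6% rose as counted and 5.32% rose with the trend removed. The part of the trend in each kinesin's difference was not tested beyond these fits. Calls also moved with single libraries: 2 members rose without control replicate 1 (1.55% of all genes), 7 without control replicate 2 (3.88%) and 22 without control replicate 3 (14.8%). Without NFIAcKO replicates 1, 2 and 3 the members that rose numbered 4, 7 and 2 (1.72%, 3.29% and 1.79% of all genes). Kif21b and Kif26b rose in all 6 of these fits.

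**Figure D1:**
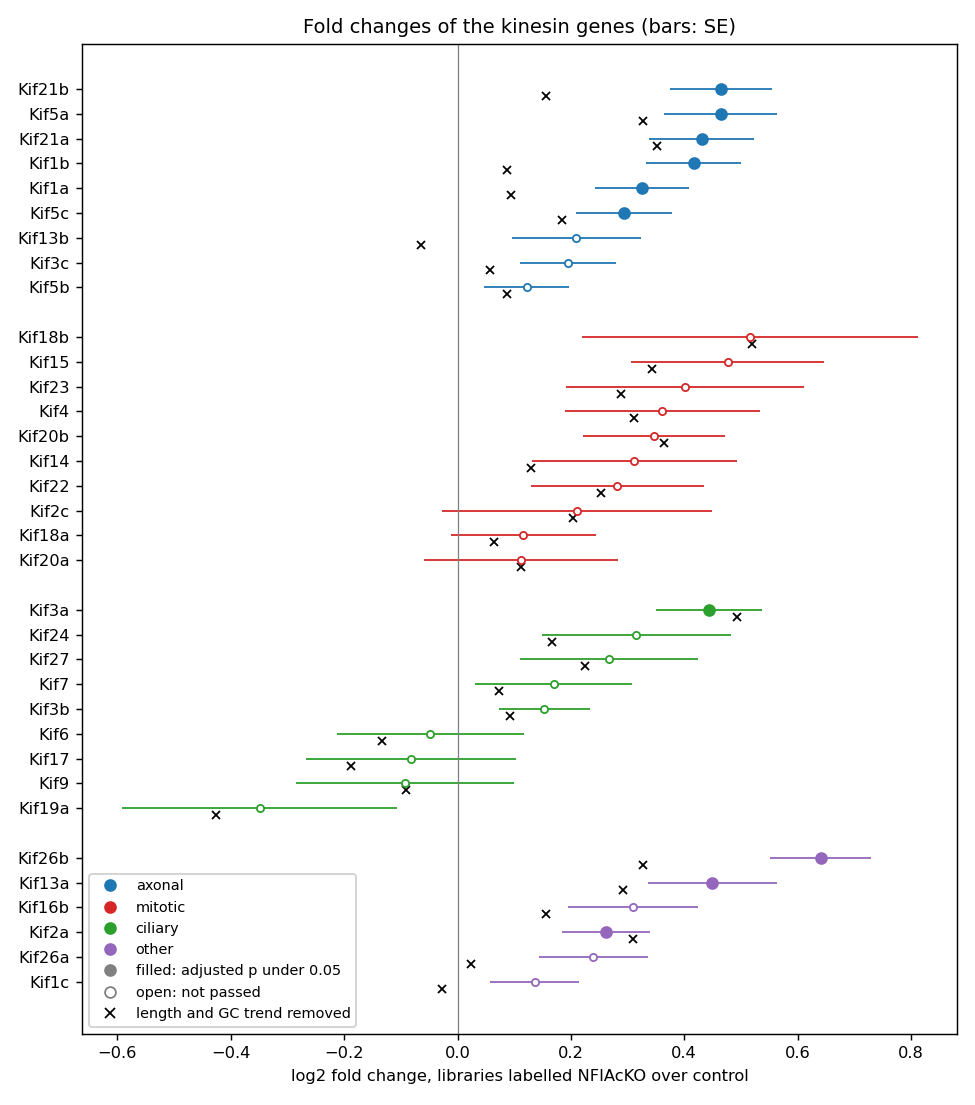
Fitted log2 fold change of each kinesin gene, libraries labelled NFIAcKO over control, with its SE, grouped by class. Filled points passed the test (10 of 34), and crosses show the value with the length and GC trend removed, which lies to the left of the point for Kif21b (0.46 and 0.16) and to the right for Kif3a (0.44 and 0.49).

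Among the axonal motors, Kif5c had the highest counts. Kif5c, a kinesin-1 heavy chain which is enriched in neurons and motor neurons, lies on chromosome 2 (49619298 to 49774778, plus strand, GRCm38). Its level was 1097, 1004 and 1102 CPM in control replicates 1, 2 and 3, and 1292, 1349.9 and 1285 CPM in NFIAcKO replicates 1, 2 and 3. The groups did not overlap and Kif5c rose, with a log2 fold change of 0.29 (SE 0.085, edgeR adjusted p = 0.034). This call held without control replicate 3 (adjusted p = 0.00647) and was lost when any of the other 5 libraries was left out (0.0724 to 0.114) and with the trend removed (log2 fold change 0.18, adjusted p = 0.0984). Kif5a, the neuron-specific heavy chain that is mutated in a form of hereditary spastic paraplegia, lies on chromosome 10 (127225696 to 127263348, minus strand). Its level was 343, 289 and 388 CPM in the controls and 471, 454 and 481 CPM in the NFIAcKO libraries. Every NFIAcKO value lay above the highest control, and the log2 fold change was 0.46 (SE 0.10, adjusted p = 0.011 in edgeR). The rise of Kif5a held with the trend removed (0.33, adjusted p = 0.0243) but not without control replicate 1 (0.055), NFIAcKO replicate 1 (0.0568) or NFIAcKO replicate 3 (0.0619). Kif5b, the heavy chain that most cell types express, stood at 214, 208 and 215 CPM in the controls and 221, 237 and 234 CPM in the NFIAcKO libraries. Its groups did not overlap either, but the difference of 0.12 on the log2 scale (SE 0.076) did not pass the test (edgeR adjusted p = 0.306). The heavy chains are close paralogs, and how the counting treated reads that match more than 1 of them is not given in the sources used here.

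The kinesin-3 motors Kif1a and Kif1b carry synaptic vesicle precursors, and an isoform of Kif1b carries mitochondria. Kif1a (chromosome 1, 93015464 to 93101951, minus strand) was at 602, 549 and 594 CPM in the controls and 738, 704 and 746 CPM in the NFIAcKO libraries. Kif1b (chromosome 4, 149176319 to 149307693, minus strand) was at 626, 592 and 654 CPM and at 821, 813 and 863 CPM. Neither gene's groups overlapped, and both rose, by 0.33 (SE 0.082, adjusted p = 0.0196) and 0.42 (SE 0.083, adjusted p = 0.00811) on the log2 scale in edgeR's test. With the trend removed Kif1a had 0.093 and Kif1b 0.088, and neither passed (adjusted p = 0.423 and 0.409). Kif1b has the longest exons of the members, 17608 bp. The Kif1a call was also lost without control replicate 1 (0.071), NFIAcKO replicate 1 (0.0941) and NFIAcKO replicate 3 (0.083), and that of Kif1b without control replicate 1 (0.051) and NFIAcKO replicate 3 (0.0509).

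Kif21a and Kif21b are kinesin-4 motors that restrain microtubule growth, and human KIF21A is known from an inherited disorder of eye muscle innervation. Kif21a (chromosome 15, 90933276 to 91049948, minus strand) stood at 176, 145 and 187 CPM in the controls and 223, 233 and 228 CPM in the NFIAcKO libraries. Kif21b (chromosome 1, 136131389 to 136177998, plus strand) stood at 499, 436 and 533 CPM and at 679, 684 and 663 CPM. In both genes the control libraries spread more widely than the NFIAcKO libraries, whose values lay close together and above every control. The log2 fold changes were 0.43 for Kif21a (SE 0.093, edgeR adjusted p = 0.011) and 0.46 for Kif21b (SE 0.090, edgeR adjusted p = 0.00746). They parted when the trend was removed: Kif21a kept 0.35 (adjusted p = 0.0227) and Kif21b, with 12184 bp of exons against 6476 bp, had 0.16 (adjusted p = 0.14). Without control replicate 1, NFIAcKO replicate 1 or NFIAcKO replicate 3 the Kif21a call was lost (0.0511, 0.0535 and 0.0598).

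Of the remaining axonal genes, Kif3c, a partner of Kif3a found mainly in neurons, and Kif13b, a kinesin-3 motor, had log2 fold changes of 0.19 and 0.21 (0.057 and -0.064 with the trend removed) and did not pass (edgeR adjusted p = 0.14 and 0.235). Annotated antisense transcripts overlap the exons of Kif3c by up to 2617 bp, and the strand setting of the counting is not given in the sources used here. Across the class, 6 of 9 genes rose and 0 fell, the median log2 fold change was 0.33, and in 7 of 9 the NFIAcKO libraries lay above all controls, as in 17.3% of tested genes. With the trend removed 2 of 9 rose and the median was 0.093. Summed over the class, the level was 3767, 3411 and 3876 CPM in control replicates 1, 2 and 3 and 4678, 4722 and 4711 CPM in NFIAcKO replicates 1, 2 and 3. The NFIAcKO libraries thus lay within a narrow band above every control (4704 ± 22.8 CPM against 3685 ± 243 CPM, SD, n = 3).

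**Figure D2:**
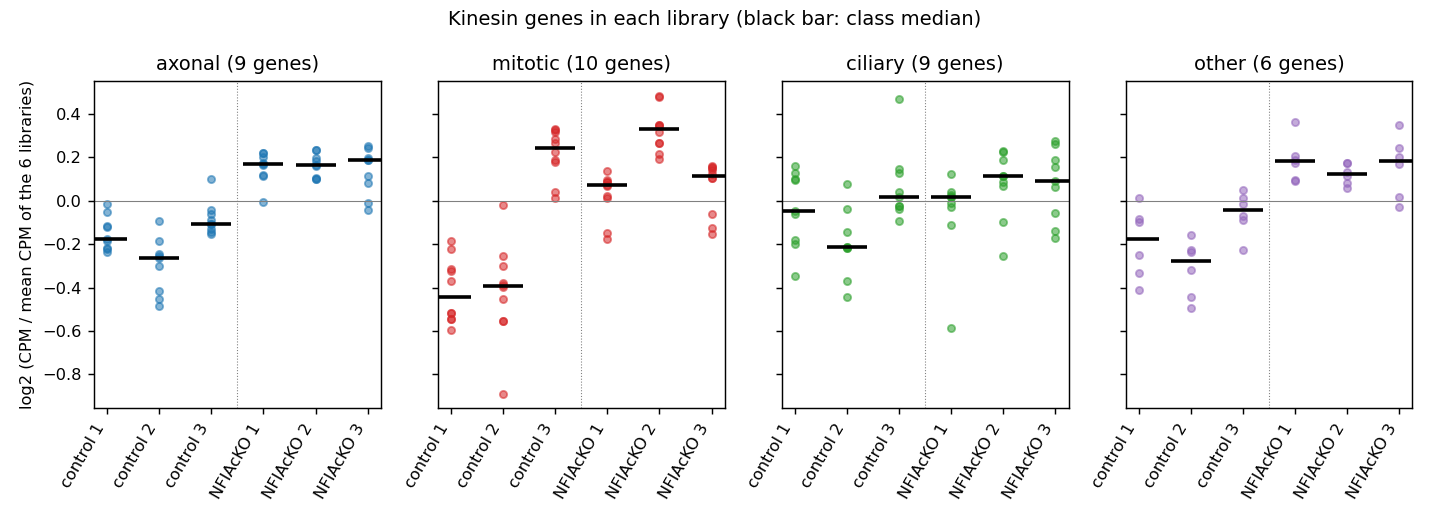
Each point is a kinesin gene in a library, as the log2 of its CPM over its mean CPM in the 6 libraries, in a panel for each class, and black bars are class medians. In the axonal panel the 3 NFIAcKO medians lie above the 3 control medians, while in the mitotic panel control 3 sits with the NFIAcKO libraries.

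Markers of neurons were read beside the axonal kinesins. Of 10 neuronal markers, Dcx, Elavl3, Rbfox3 and Nefm rose and 0 fell, against 7.86% and 6.08% of all tested genes. The median log2 fold change was 0.21, with 8 of 10 above 0 and the lowest at -0.13. With the trend removed 4 of 10 rose, with Elavl4 in place of Nefm, against 3.82% of all genes. The median of the list was then also 0.21, while that of the axonal kinesins was 0.093. Leaving out control replicates 1, 2 and 3 gave 1, 3 and 5 of 10 higher (1.55%, 3.88% and 14.8% of all genes). Leaving out NFIAcKO replicates 1, 2 and 3 gave 0, 1 and 0 higher (1.72%, 3.29% and 1.79% of all genes). Among these fits the call of Nefm held only without control replicate 3 (edgeR adjusted p = 0.000345). No marker of the list was at 0. The summed level of the list ranged from 10268 to 11091 CPM in the controls and from 12167 to 12535 CPM in the NFIAcKO libraries. The part of this in the kinesin result was not tested. Tubb3, a tubulin of all neurons, differed by 0.049 on the log2 scale (SE 0.091, edgeR adjusted p = 0.767). Of 5 motor neuron markers (Isl1, Mnx1, Chat, Slc18a3 and Slc5a7) 0 passed in edgeR or limma-voom and 1 did in DESeq2, 1 had an unadjusted p under 0.05 in edgeR and 1 rose with the trend removed (both times Mnx1), and their sum was 139 to 159 CPM in the controls and 160.2 to 171 CPM in the NFIAcKO libraries.

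The promoters of the neuronal motors are shown for comparison with those of the mitotic class below. Of the 34 members, 28 had at least 1 RefSeq promoter window (GRCm38.p6), which runs from 250 bases before to 50 bases after the start. Kif5a and Kif21b were among those without. The 120 bases before the start of Kif5c, Kif1a and Kif21a (the RefSeq or GENCODE start, whichever lies upstream) are given 5′ to 3′ on the gene's strand (chr2:49619166-49619285 plus, chr1:93101952-93102071 minus and chr15:91049952-91050071 minus). Capitals would mark the cell cycle homology region or the NF-Y box explained below, and these 3 stretches hold neither.
Kif5c: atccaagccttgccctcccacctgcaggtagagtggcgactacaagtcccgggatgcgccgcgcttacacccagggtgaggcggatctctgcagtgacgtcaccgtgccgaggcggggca
Kif1a: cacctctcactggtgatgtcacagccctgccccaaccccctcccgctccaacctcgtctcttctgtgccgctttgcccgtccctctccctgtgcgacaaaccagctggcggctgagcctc
Kif21a: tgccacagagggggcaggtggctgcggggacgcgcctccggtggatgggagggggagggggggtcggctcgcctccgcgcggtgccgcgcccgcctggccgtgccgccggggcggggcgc

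Mitotic kinesins were spread much more widely among the controls. Of the 10 genes, 0 rose and 0 fell in edgeR's test, although all 10 log2 fold changes were above 0 (0.11 to 0.52), with a median of 0.33 and adjusted p from 0.0769 to 0.708. Kif15 and Kif20b had an unadjusted p under 0.05 and passed in DESeq2, and 0 of 10 passed in limma-voom. With the number in the library names as a block, edgeR called Kif15 and Kif20b (adjusted p = 0.0303 and 0.0499, with 9.6% of all genes higher). With no filter on low counts it called Kif15, Kif18b, Kif23 and Kif4 (5.64% of all genes higher). With the trend removed 0 passed and the median was 0.27. The groups overlapped in all but Kif20b.

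Kif20a and Kif23 act together with their partners at the central spindle in cytokinesis. Kif23, the motor subunit of centralspindlin, lies on chromosome 9 (61915905 to 61946774, minus strand) and stood at 12.4, 12.3 and 22.1 CPM in control replicates 1, 2 and 3 and 19.0, 22.6 and 20.3 CPM in NFIAcKO replicates 1, 2 and 3. Kif20a (chromosome 18, 34624613 to 34633277, plus strand), which brings the chromosomal passenger complex to the midzone, stood at 14.6, 13.1 and 21.5 CPM and at 17.3, 20.5 and 15.4 CPM. In both, control replicate 3 was at the level of the NFIAcKO libraries while control replicates 1 and 2 lay below all of them. The log2 fold changes were 0.40 for Kif23 (SE 0.21, edgeR adjusted p = 0.239) and 0.11 for Kif20a (SE 0.17, edgeR adjusted p = 0.708). Exons of Cdc23 overlap those of Kif20a by 1271 bp on the opposite strand, so its counts are uncertain.

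Kif15, which can stand in for Kif11 in keeping spindle poles apart, had the second-smallest p of the class. Its level was 14.1, 13.7 and 22.8 CPM in the controls and 22.2, 25.7 and 22.5 CPM in the NFIAcKO libraries, a log2 fold change of 0.48 (SE 0.17, edgeR adjusted p = 0.083, DESeq2 adjusted p = 0.0208). Kif20b, which acts in cytokinesis of neural progenitors, was at 10.3, 11.1 and 13.7 CPM and at 14.0, 16.02 and 14.7 CPM. Its log2 fold change was 0.35 (SE 0.13, edgeR adjusted p = 0.0769, DESeq2 adjusted p = 0.041). Kif4, a chromosome-bound motor that shapes the central spindle, was at 12.1, 13.1 and 20.2 CPM and at 17.5, 22.1 and 18.8 CPM. The Kif4 difference was 0.36 (SE 0.17, edgeR adjusted p = 0.182), and exons of Pdzd11 overlap those of Kif4 by 832 bp on the opposite strand. Kif22, which pushes chromosome arms toward the metaphase plate, was at 15.9, 15.1 and 22.6 CPM and at 21.1, 25.2 and 19.0 CPM, a log2 fold change of 0.28 (SE 0.15, edgeR adjusted p = 0.236). Processed copies of Kif4 and Kif22 had at most 1 count in any library. The remaining members (Kif2c, Kif14, Kif18a and Kif18b) had log2 fold changes of 0.12 to 0.52.

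Control replicate 3 set the spread of this class. It was the highest control in 10 of 10 mitotic kinesins, as it was in 37.9% of all tested genes, and it lay above the NFIAcKO mean in 7 of 10. Control replicates 1 and 2 were below all 3 NFIAcKO libraries in 9 of 10, and NFIAcKO replicate 2 was the highest of the 6 libraries in 8 of 10. For axonal kinesins these last counts were 8 of 9 and 5 of 9, so the first is not particular to the mitotic class. Control replicate 3 lay above the NFIAcKO mean in 0 of 9 axonal kinesins. The shares of all tested genes were not computed for these 3 counts. Without control replicate 3, 9 of 10 rose, all but Kif18a, with a median log2 fold change of 0.53. In the same fit 14.8% of all tested genes rose. The median coefficient of variation of a mitotic kinesin was 29.8% among controls and 12.9% among NFIAcKO libraries, against 5.98% and 3.00% for an axonal kinesin.

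Library names carry a leading number whose meaning is not given in the sources used here. Control replicates 1 and 2 and NFIAcKO replicates 1 and 2 share a number, and control replicate 3 and NFIAcKO replicate 3 share another. Within the first set the median log2 ratio of NFIAcKO over control was 0.58 for mitotic kinesins, with 10 of 10 above 0. Within the second, which has 1 library a group, it was -0.12, with 2 of 10 above 0. The mitotic medians thus had opposite signs in the 2 sets, and the second set has control replicate 3 as its only control. For axonal kinesins the medians were 0.38 and 0.29, with 9 of 9 and 8 of 9 above 0. The share of all tested genes above 0 was not computed within either set, so these counts have no background.

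Genes of dividing cells followed the same libraries. The summed level of 10 proliferation markers was 436, 435 and 616 CPM in control replicates 1, 2 and 3 and 531, 665 and 551 CPM in NFIAcKO replicates 1, 2 and 3. Control replicate 3 was the highest control in 10 of 10, and no marker of the list was at 0. Mki67, a protein of dividing cells, rose (log2 fold change 0.89, SE 0.19, edgeR adjusted p = 0.0225), the other 9 did not pass, and the list's median was 0.10. The Mki67 call was lost with the trend removed (0.72, adjusted p = 0.0659), when 0 of 10 passed and the median was 0.14. It was also lost without control replicates 1 and 2 (0.0629 and 0.109) and without NFIAcKO replicates 1, 2 and 3 (0.0525, 0.0608 and 0.0861). Of 10 progenitor markers, Nes and Notch1 rose and Fabp7, Slc1a3 and Hes5 fell, against 7.86% and 6.08% of all tested genes. Of these 5 only Slc1a3 passed with the trend removed (-0.52, edgeR adjusted p = 0.0243). Without control replicate 3, 4 of the 10 rose and 3 fell. In that fit 2703 of 18204 tested genes rose and 2466 fell. Leaving out any other library gave 0 higher and 0 to 2 lower. Of all genes, 1.55% to 3.88% rose and 0.764% to 2.37% fell in those fits. The summed level of the progenitor list was 2920 to 3103 CPM in the controls and 2776 to 3073 CPM in the NFIAcKO libraries. The part of either list in the kinesin result was not tested.

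Summed over the class, mitotic kinesins stood at 113, 112 and 174 CPM in control replicates 1, 2 and 3 and 153, 188 and 155 CPM in NFIAcKO replicates 1, 2 and 3 (133 ± 35.6 CPM against 165 ± 19.8 CPM, SD, n = 3), so the groups overlapped. The ratio of the axonal to the mitotic sum, which is not scaled for gene length, was 33.4, 30.5 and 22.3 in the controls and 30.7, 25.1 and 30.4 in the NFIAcKO libraries. The means were 28.8 ± 5.78 and 28.7 ± 3.13 (SD, n = 3), a difference well within the spread of the replicates. Axonal kinesins made up 80.9 ± 0.840% of the summed kinesin CPM in the controls and 81.0 ± 0.158% in the NFIAcKO libraries. The sum over all 34 members was 4556 ± 334 CPM and 5804 ± 39.3 CPM.

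**Figure D3:**
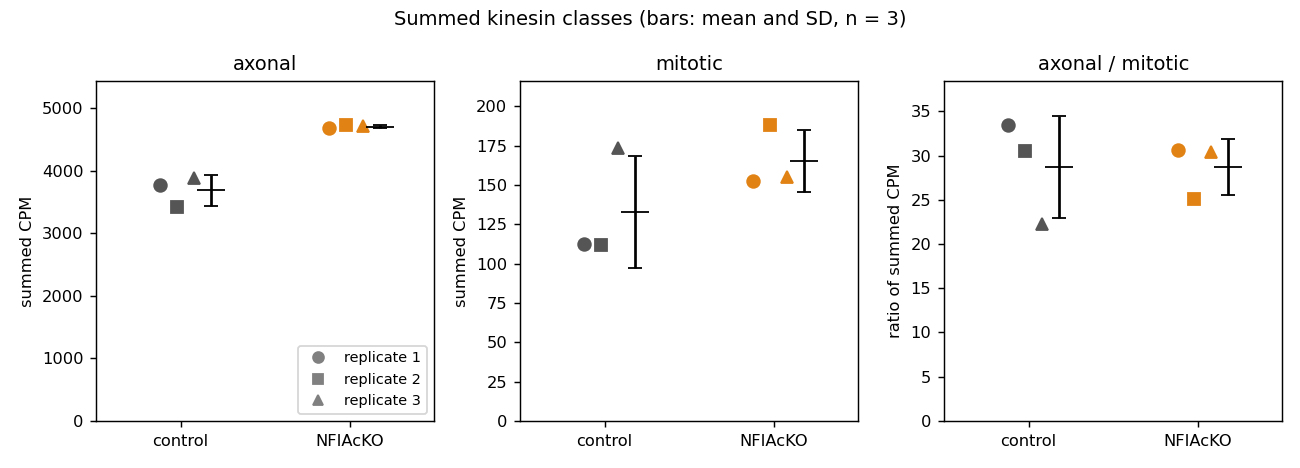
Summed CPM of the axonal and mitotic kinesins and the ratio of the sums in each library, with the mean and SD of each group (n = 3). The axonal sums do not overlap (3411 to 3876 against 4678 to 4722 CPM), the mitotic sums and the ratios do.

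The promoters of the mitotic class were searched on both strands for 3 short motifs. The first is the cell cycle homology region (TTTGAA or TTTAAA, and TTCAAA as the other strand of TTTGAA), which in many genes of late cell cycle phases is bound by a repressor complex that keeps them off in resting cells. It was in a window of 8 of 9 mitotic members, 1 of 5 axonal, 1 of 8 ciliary and 1 of 6 of the remaining class, and in 30.6% of all 27025 symbols with a window (27.6% of 32851 windows). Some RefSeq starts lie far from the gene start in GENCODE. With starts within 100 bases of it, the counts were 5 of 6 mitotic, 0 of 5 axonal, 0 of 6 ciliary and 1 of 5 of the remaining class, against 24.5% of 14478 symbols. The 30 bases around the match nearest the start are printed for these 5, with the motif in capitals, each 5′ to 3′ on the gene's strand (GRCm38.p6). They lie at chr9:122951050-122951079 (plus), chr11:102925104-102925133 (minus), chr19:34922353-34922382 (plus), chr7:127042420-127042449 (minus) and chr9:61946780-61946809 (minus).
Kif15: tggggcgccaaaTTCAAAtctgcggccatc
Kif18b: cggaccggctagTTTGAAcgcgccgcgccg
Kif20b: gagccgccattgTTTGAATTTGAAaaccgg
Kif22: gggccccggtaaTTCAAAagagagaagcgg
Kif23: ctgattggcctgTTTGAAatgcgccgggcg

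Counted from the RefSeq start, the first motif base was at -19 in Kif15, +4 in Kif18b, +8 in Kif20b, -17 in Kif22 and +3 in Kif23, so all 5 lay within 19 bases of it. In Kif20b 2 copies stand next to each other. The second motif, the NF-Y box (CCAAT or ATTGG), often stands upstream of the first in cell cycle promoters. It was in 5 of 9 mitotic, 1 of 5 axonal, 5 of 8 ciliary and 1 of 6 remaining members, and in 41.1% of all symbols. The third, 1 arm of the palindrome that the NFI family binds (TTGGC or GCCAA, which overlaps ATTGG where ATTGGC occurs), was in 6 of 9, 3 of 5, 2 of 8 and 3 of 6, and in 50.4% of all symbols. The full NFI palindrome was in 12 of 32851 windows and in 0 of the 28 members with a window. A match is a description of these letters and not a binding site.

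**Figure D4:**
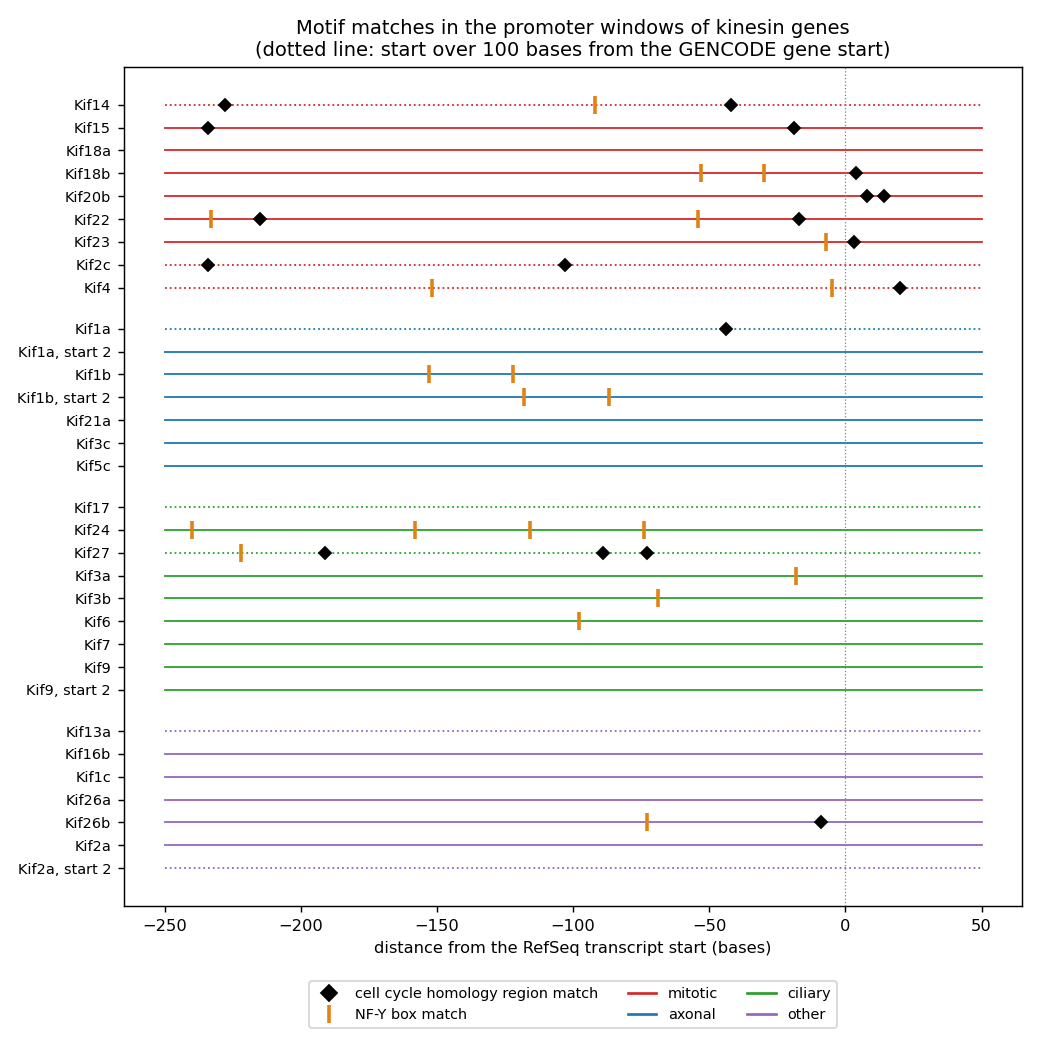
Positions of cell cycle homology region matches (diamonds) and NF-Y box matches (bars) in the promoter windows of the 28 kinesin genes that have one, by distance from the RefSeq start in bases, with dotted lines for starts over 100 bases from the GENCODE gene start. Diamonds stand within 19 bases of the start in Kif15, Kif18b, Kif20b, Kif22 and Kif23, and no axonal gene has one on a solid line.

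In the ciliary class, Kif3a rose and the other 8 did not pass. Kif3a, the shared subunit of the heterotrimeric kinesin-2 motor, lies on chromosome 11 (53567379 to 53601967, plus strand). It was at 159, 135 and 172 CPM in control replicates 1, 2 and 3 and at 199, 214 and 219.7 CPM in NFIAcKO replicates 1, 2 and 3, with no overlap. The log2 fold change was 0.44 (SE 0.093, edgeR adjusted p = 0.00955), and with 3586 bp of exons, under the median of all tested genes, it was 0.49 with the trend removed (adjusted p = 0.0159). The call was lost without control replicate 1 (0.051) and NFIAcKO replicate 3 (0.0615). Its usual partner Kif3b was at 107, 95.6 and 112 CPM and at 114, 118 and 118 CPM, a difference of 0.15 (SE 0.080, edgeR adjusted p = 0.219), and the third subunit, Kifap3, differed by 0.023 (SE 0.079, edgeR adjusted p = 0.876). The difference between the subunits was not tested. Kif24 and Kif27 differed by 0.32 and 0.27 and did not pass (edgeR adjusted p = 0.222 and 0.279). Kif6, Kif9, Kif17 and Kif19a, which serve motile or sensory cilia, had log2 fold changes of -0.048 to -0.35, and were the 4 members below 0. They were also among the lowest in level, with means of 1.72 to 3.51 CPM. The class median was 0.15, and with the trend removed it was 0.073 with 1 of 9 higher.

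The 120 bases before the start of Kif3a (chr11:53567249-53567368, plus strand, GRCm38.p6) hold an NF-Y box, in capitals, and no cell cycle homology region.
Kif3a: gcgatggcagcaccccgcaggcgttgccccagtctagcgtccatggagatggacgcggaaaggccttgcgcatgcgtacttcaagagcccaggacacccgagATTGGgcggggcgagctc

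The remaining class held the member with the smallest p. Kif26b, an atypical kinesin without motor activity that acts in cell adhesion and kidney development, lies on chromosome 1 (178529125 to 178939200, plus strand). It was at 95.3, 93.2 and 108 CPM in control replicates 1, 2 and 3 and at 163, 139 and 161 CPM in NFIAcKO replicates 1, 2 and 3. The lowest NFIAcKO library was well above the highest control, and Kif26b rose by 0.64 on the log2 scale (SE 0.089, edgeR adjusted p = 0.00275). Its exons sum to 14696 bp, and with the trend removed the value was 0.33 (adjusted p = 0.019). It was called without each library in turn (adjusted p = 1.04e-05 to 0.0413), and an antisense transcript overlaps its exons by 909 bp. The 120 bases before its start (chr1:178529005-178529124, plus strand, GRCm38.p6) are shown because, outside the mitotic class, only here did a window close to the GENCODE start hold a cell cycle homology region. Capitals mark an NF-Y box and, nearer the start, that motif.
Kif26b: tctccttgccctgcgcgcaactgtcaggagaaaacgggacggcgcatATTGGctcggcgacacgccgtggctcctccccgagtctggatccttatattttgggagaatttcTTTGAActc

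Kif13a, a kinesin-3 motor of endosomes (chromosome 13, 46749087 to 46929867, minus strand), was at 48.6, 43.5 and 63.4 CPM in the controls and 70.6, 69.2 and 72.5 CPM in the NFIAcKO libraries. It rose by 0.45 (SE 0.11, edgeR adjusted p = 0.0217), with all NFIAcKO libraries above the controls. With the trend removed it was 0.29 (adjusted p = 0.0579), and when a library was left out, only the fit without control replicate 3 kept the call (adjusted p = 1.38e-05, against 0.0597 to 0.102). Kif2a, a kinesin-13 that takes microtubules apart and prunes axon branches (chromosome 13, 106958996 to 107022126, minus strand), was at 164, 150.1 and 165 CPM and at 187, 190.2 and 198 CPM. The groups did not overlap and it rose by 0.26 (SE 0.077, edgeR adjusted p = 0.0364), and by 0.31 with the trend removed (adjusted p = 0.0254). That call was lost with upper quartile scaling (0.0586) and in every fit without a library except the one without control replicate 3 (0.00937, against 0.0967 to 0.144 in the others). Exons of Dimt1 overlap those of Kif2a by 1229 bp on the opposite strand. Kif16b, Kif1c and Kif26a had log2 fold changes of 0.31, 0.14 and 0.24 (0.16, -0.028 and 0.023 with the trend removed) and did not pass (edgeR adjusted p = 0.0841, 0.265 and 0.106). In all, 3 of 6 rose with a median of 0.29, and 2 of 6 rose with a median of 0.22 once the trend was removed. In 5 of 6 the NFIAcKO libraries lay above all controls, as in 17.3% of tested genes.

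**Figure D5:**
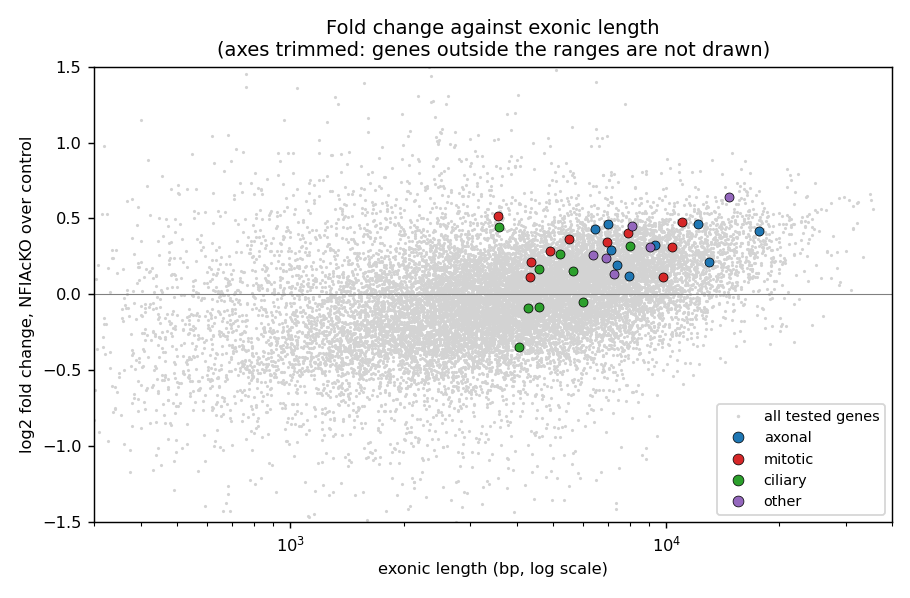
Log2 fold change of all tested genes against exonic length in bp (log axis), with kinesin genes coloured by class. The members lie in the longer part of the range (median 6974 bp against 3976 bp), and the axes leave out genes beyond the limits shown.

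Per kilobase of exon, which allows levels of different genes to be set side by side, Kif5c was the most abundant kinesin in the controls at 149 ± 7.74 CPM per kb (SD, n = 3). Kif1a followed at 62.4 ± 3.07, then Kif5a at 48.6 ± 7.09, Kif3a at 43.3 ± 5.24, Kif21b at 40.2 ± 4.03 and Kif1b at 35.4 ± 1.77 CPM per kb. Kif5a, Kif3a and Kif21b did not differ from each other beyond their spread. Kif5b, Kif21a, Kif2a and Kif3c lay close together at 24.3 to 26.6 CPM per kb. The most abundant mitotic members, Kif20a and Kif22, stood at 3.78 ± 1.03 and 3.65 ± 0.84 CPM per kb, and Kif24 was lowest of all members at 0.44 ± 0.06 CPM per kb. In the NFIAcKO libraries Kif5c was again highest at 183 ± 5.01 CPM per kb, followed by Kif1a at 78.2 ± 2.35 and Kif5a at 67.1 ± 1.998 CPM per kb. The share of Kif5c in the summed kinesin CPM was 23.5 ± 0.649% in the controls and 22.5 ± 0.537% in the NFIAcKO libraries (SD, n = 3).

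Motors outside the symbol rule and the proteins that work with kinesins were read from fixed lists, to be set beside the 7.86% higher and 6.08% lower among all tested genes (3.82% and 3.87% with the trend removed). Of 6 kinesins named otherwise (Kifc1, Kifc2, Kifc3, Kifc5b, Cenpe and Stard9) 0 passed in edgeR, 0 in DESeq2 and 1 in limma-voom, 2 had an unadjusted p under 0.05 in edgeR (Cenpe and Stard9), and the median log2 fold change was 0.23, or 0.082 with the trend removed. Cenpe, the kinesin-7 of the kinetochore, was at 12.3, 12.6 and 23.2 CPM in control replicates 1, 2 and 3 and at 22.3, 32.6 and 29.1 CPM in NFIAcKO replicates 1, 2 and 3. Like the mitotic members it was highest in replicate 3 among controls, and its difference of 0.80 (SE 0.28) had an edgeR adjusted p of 0.111. Cenpe passed in limma-voom (0.0228), with the number in the library names as a block (0.0192) and without control replicate 3 (1.1e-05), and did not with the trend removed (0.2). Kifc1 and Stard9 differed by 0.31 and 0.34 (edgeR adjusted p = 0.256 and 0.125), the latter by -0.062 with the trend removed.

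Of 21 kinesin light chains, accessory subunits and cargo adaptors, 2 rose and 0 fell, with a median of 0.11. Removing the trend left 1 higher (Arl8a) and 1 lower (Fez1), with a median of 0.054. Madd, an adaptor for Kif1a and Kif1b, rose by 0.29 (SE 0.081, edgeR adjusted p = 0.0305), and Trak1, which ties mitochondria to kinesin-1, by 0.27 (SE 0.078, edgeR adjusted p = 0.0331). Neither call held with the trend removed (0.084 and -0.048, adjusted p = 0.427 and 0.676), and among the fits without a library both held only in that without control replicate 3 (0.0057 and 0.0042, against 0.0869 to 0.1335 in the others). Fez1, another kinesin-1 adaptor, differed by -0.26 (SE 0.084) and did not pass as counted (edgeR adjusted p = 0.0534). It fell with the trend removed (-0.27, adjusted p = 0.0437), and also passed in DESeq2 (0.0143), with upper quartile scaling (0.0277), no filter (0.0351), the block by library-name number (0.0384), the Xist covariate (0.0413) and without control replicate 3 (0.00267).

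Of 25 dynein and dynactin genes, which run the opposite way along microtubules, 2 rose and 1 fell, with a median of 0.034, shares near those of all genes. Removing the trend left 1 higher (Dynlrb1) and 0 lower, with a median of -0.0060. Dync1h1, the heavy chain of cytoplasmic dynein, was at 276, 309 and 357 CPM in the controls and 462, 442 and 547 CPM in the NFIAcKO libraries. It rose by 0.62 (SE 0.11, edgeR adjusted p = 0.0051) and was called without each library in turn, while with the trend removed it had 0.29 (adjusted p = 0.0547). Hook3, an adaptor with 28486 bp of exons, rose by 0.28 (SE 0.080, edgeR adjusted p = 0.0327) and had -0.015 with the trend removed. Dctn3, a small dynactin subunit with 1042 bp of exons, fell by 0.51 (SE 0.13, edgeR adjusted p = 0.0207), and with the trend removed had -0.26 (adjusted p = 0.0716). The Hook3 call held only without control replicates 2 and 3 (0.0336 and 0.0361), and Dctn3 passed when control replicate 2, control replicate 3 or NFIAcKO replicate 2 was left out (0.034, 0.0001 and 0.0437) but in no other such fit.

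Of 20 partners of the mitotic kinesins in the spindle and in cytokinesis, 1 rose and 0 fell, with a median of 0.21 (also 1 and 0 with the trend removed, median 0.30), and control replicate 3 was the highest control in 20 of 20. Cit, a kinase that works with centralspindlin at the midbody, was at 21.7, 19.6 and 26.8 CPM in the controls and 36.7, 37.2 and 35.0 CPM in the NFIAcKO libraries. It rose by 0.68 (SE 0.11, edgeR adjusted p = 0.0046), also without each library in turn and with the trend removed (0.34, adjusted p = 0.0335). Kntc1 and Prc1 differed by 0.48 each and did not pass (edgeR adjusted p = 0.0893 and 0.118). Of 19 intraflagellar transport genes, the cargo system of the ciliary kinesins, 1 rose and 1 fell, with a median of -0.029 (0 and 0 with the trend removed, median 0.026). Dync2h1, the heavy chain of ciliary dynein, rose by 0.38 (SE 0.11, edgeR adjusted p = 0.0332) and Ift20, with 1525 bp of exons, fell by 0.45 (SE 0.10, edgeR adjusted p = 0.0127). Dync2li1 had -0.31 (edgeR adjusted p = 0.06). With the trend removed Dync2h1 had 0.14 and Ift20 -0.22, and neither passed (edgeR adjusted p = 0.384 and 0.115). The Dync2h1 call held only without control replicates 2 and 3 (0.0345 and 0.0104) and Ift20 passed when control replicate 2, control replicate 3 or NFIAcKO replicate 2 was left out (0.0305, 0.0003 and 0.0464) but in no other such fit.

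Markers of other cells that a dissected cord could hold were also read, and their part in the kinesin results was not tested. Endothelial markers summed to 245 to 291 CPM in the controls and 310 to 332 CPM in the NFIAcKO libraries. Among the 5, 3 rose and 1 fell, against 7.86% and 6.08% of all tested genes. With the trend removed 2 rose and 0 fell, against 3.82% and 3.87%. Without control replicates 1, 2 and 3, the endothelial markers that rose numbered 1, 2 and 3 (1.55%, 3.88% and 14.8% of all genes). Without NFIAcKO replicates 1, 2 and 3 they numbered 1, 1 and 2 (1.72%, 3.29% and 1.79%). The endothelial fall was called only without control replicates 2 and 3. Microglial markers summed to 65.0 to 74.3 CPM and 54.2 to 59.9 CPM, with 1 of 5 lower (0 with the trend removed). Without control replicate 3, 3 of 5 were lower, in a fit where 2466 of 18204 genes fell. Without any other library 0 were lower. Markers of erythroid cells (5), mesenchyme and meninges (6), sensory ganglia (5), skeletal muscle (5) and Schwann cells (3) were also listed. Of these, 5, 6, 4, 4 and 2 had enough counts to be tested, and 0 passed in edgeR, DESeq2 or limma-voom. Their median log2 fold changes were 0.072, 0.23, -1.32, 0.083 and -0.53, in the same order. Hbb-y, Dcn, Foxc1 and Cdh19 had an unadjusted p under 0.05 in edgeR. Hbb-y rose once the trend was removed (0.55, adjusted p = 0.0153). Sums of the sensory ganglion, muscle and Schwann lists stayed at or below 26.4 CPM in every library, and Scn10a, Trpv1 and Foxd3 were at 0 in at least 1 library.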

How the data were processed

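Total RNA of 3 control and 3 NFIAcKO cords was purified on RNeasy columns and sequenced as Illumina Stranded mRNA Prep libraries, per the labels. STAR 2.6.1a, HTSeq, DESeq2 and mm10 appear in the submitters' processing notes, with no roles. The authors deposited whole-number counts per gene symbol, not normalized. The annotation and the strand setting are not given in the sources, so genes with overlapping exons are uncertain (13 members have some overlap). The 5 summary lines per file (16.9 to 19.4% of its total) were left out. As a check for duplicated libraries only, chi-square per degree of freedom was taken between libraries of a group. It was 11.9 to 50.2, highest between control replicates 2 and 3, so none was a copy of another. All 6 were kept.

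Counts were fitted in edgeR 4.0.16 (R 4.3.3) with filterByExpr, TMM, the robust quasi-likelihood F test and Benjamini-Hochberg adjustment. The biological coefficient of variation was 11.5%. The SE is the size of the log2 fold change divided by the root of F. The scripts were tested on simulated data. P-values measure the spread between these embryos. Exon lengths, GC and coordinates came from GENCODE M21 (GRCm38), which held all 34 members, and promoters from RefSeq. To remove the trend, splines with 5 degrees of freedom in exon length and GC were fitted to each library over genes with mean log2 CPM over 1 and used as offsets. Alternatives were upper quartile and RLE scaling, DESeq2 1.42.0, limma-voom (limma 3.58.1), 2 other filters, a block by replicate or library-name number, an Xist covariate, the trend removal and leaving out each library. The comparison with genes of like length was added after seeing the data. The members, lists and tests were chosen with earlier results of these data known. Named genes were the members that passed, Kif1a, Kif5a, Kif5c, Kif11, Kif20a and Kif23, the 4 smallest p of each kinesin class, its highest level per length, the 3 smallest p of each partner list, and Nfia. Others named were chosen after their values were seen. Protein sequences were not used here.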

Additional observations from a re-analysis of the deposited data

How the results depend on the processing

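Of 1392 higher and 1076 lower genes, 676 and 686 were left with the length and GC trend removed, and leaving out a library gave 282 to 2703 higher and 139 to 2466 lower, the most without control replicate 3. Upper quartile scaling gave 1057 higher and 1434 lower, and moved the median of all genes by -0.039 on the log2 scale. The 10 higher kinesins became 5 with the trend removed and 2 to 22 without a library. Falls stayed at 0 in every fit run. The other fits gave 9 to 14 higher kinesins. All 10 kept their call with RLE scaling, DESeq2, limma-voom, both other filters, the library-name block and the Xist covariate. The median of the axonal class, 0.33, was 0.093 with the trend removed, and counting Kif3a and Kif3b as axonal left it at 0.33. The trend removal turned the sign of Kif13b (-0.064), Kif1c (-0.028), Hook3 (-0.015), Stard9 (-0.062) and Trak1 (-0.048). Without a library Kif20a ranged from -0.037 (without control replicate 2) to 0.35 (without control replicate 3), with -0.0032 without NFIAcKO replicate 2. The cause of these changes was not tested.

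Replicate numbers are shared between the groups, but the labels do not say that they pair embryos. Deviations of same-numbered libraries from their group means correlated at 0.0875, 0.12 and 0.119 over 17711 genes, each library most with its own number, which is a hint from the data and not the design. With the replicate block 1353 genes were higher and 1119 lower, and 9 kinesins were higher, without Kif5c. Cenpe passed with it (adjusted p = 0.0157). Members at a few CPM, such as Kif9, Kif17 and Kif19a, have standard errors of 0.19 to 0.24, so changes of the size seen in the axonal class were not detectable in them.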
